A study of Drosophila melanogaster with 16 samples.

Results

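The genes described here are 10 *Drosophila* genes of fatty acid breakdown, and they were measured in fed and fasted larvae with and without the kinase ERK7. They were taken by name from a table of 10459 genes, and 9 were found under the symbol given. *CPT2* stands in the table under its older name *CG2107* and was matched through its gene number. Fatty acids enter the mitochondrion as carnitine esters and are then shortened step by step by dehydrogenation, hydration, a further dehydrogenation and thiolytic cleavage, which yields acetyl-CoA. Peroxisomes run a parallel pathway whose first step is catalysed by acyl-CoA oxidases. Hnf4 is a nuclear receptor that in the fasting larva is known to promote the expression of lipid breakdown genes.

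The libraries came from whole male larvae of the third instar in 4 groups of 4 libraries, which were control fed, control fasted, *ERK7* mutant fed and *ERK7* mutant fasted. Eggs had been laid over 3 h, and by the sample labels the larvae went onto standard food 24 h later and onto the assigned food after a further 48 h, whereas the study's methods give a later age at that transfer. Fasted larvae had spent 6 h on a medium of agarose in saline without nutrients, and fed larvae had spent the same 6 h on fresh food. The mutant was 1 line, a small frameshift deletion made by CRISPR/Cas9 that is a likely null allele. The control was another line from the same screen, with no mutation in *ERK7*. Both lines had been backcrossed to *w1118* and were kept as balanced stocks. All 16 libraries were made from polyadenylated RNA, and neither the number of larvae behind each sequenced library nor their collection as separate cultures is given in the sources used here, so the p-values measure the spread between these libraries.

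Each library held 16482553 to 20601418 reads on the listed genes, and 1 read was worth 0.0472 to 0.0642 RPM, the linear library-scaled unit used throughout. *Erk7* itself was higher in fed mutants (5.58 to 10.2 RPM) than in fed controls (0.634 to 3.05 RPM, limma adjusted p = 0.00235), and as the mutation is a short deletion its level does not check the labels. Over all libraries 10 muscle markers summed to 43130 to 61200 RPM. The sum of 7 midgut markers was 8280 to 9537 RPM in control fed and 8798 to 11340 RPM in control fasted libraries. In mutants it was 7250 to 8939 RPM in fed and 6307 to 8076 RPM in fasted libraries. On each diet 3 of the 7 were called lower in mutants, beside 26.0% of all genes in fed and 20.9% in fasted larvae. The 3 were not the same, since *Jon74E* was called in fed larvae only and *Jon65Aiv* in fasted larvae only. The summed level of 5 fat body markers was 29690 to 49010 RPM in control fed and 11640 to 13030 RPM in control fasted libraries, against 104600 to 124800 RPM in mutant fed and 24820 to 31540 RPM in mutant fasted libraries. These markers did not move as 1, since the larval serum protein genes *Lsp1alpha*, *Lsp1beta* and *Lsp1gamma* were called higher in fed mutants (log2 fold changes 1.85 to 6.96), *Apoltp* was called lower (-0.75) and *Rfabg* was not called (0.11). Upon fasting in mutants *Apoltp* rose by 0.33 and the other 4 fell. The sum of 20 testis markers was 58.8 to 89.9 RPM in control fed, 67.7 to 168 RPM in control fasted, 176 to 249 RPM in mutant fed and 161 to 232 RPM in mutant fasted libraries. None of these markers was at 0 throughout a group. Of the listed markers, 5 of 8 for fat body, 7 of 10 for midgut and 20 of 26 for testis were measured. In whole larvae, fewer cells of a type and less RNA per cell cannot be told apart, and the part of these marker differences in the results below was not tested. The study also reports earlier pupariation of the mutants, and the part of developmental stage in the genotype differences was not tested.

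Upon fasting, all 10 genes rose in control larvae, where 69.7% of all tested genes were called and 37.5% were called higher. The 10 genes were chosen with earlier results of these data known, so their counts beside these shares are a description. A call stands for an adjusted p below 0.05 (limma on log2(RPM + 1), with the Benjamini-Hochberg method over all genes). In 9 of the 10, every fasted library was above every fed library, which held for 28.1% of all genes. The median log2 fold change of the 10 genes was 1.02, and that of all genes was 0.10. The rises were far from uniform, from 4.36 for *whd* to 0.34 for *scu*. In *ERK7* mutants 8 of the 10 genes rose, against 48.7% of all genes called and 23.7% called higher, with a median of 0.77 beside a median of 0.00 over all genes. In these 8 the fasted libraries were also all above the fed ones, as they were for 22.7% of all genes. *Hnf4* and *scu* were the genes that missed the call in mutants. A difference in response between the genotypes was called for *CG4586* and *whd*, both with a smaller rise in mutants. The test of the difference itself called 31.9% of all genes and 13.7% in this direction. The call of *CG4586* held under all 24 alternative settings, whereas that of *whd* was lost in 6.

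**Figure D1:**
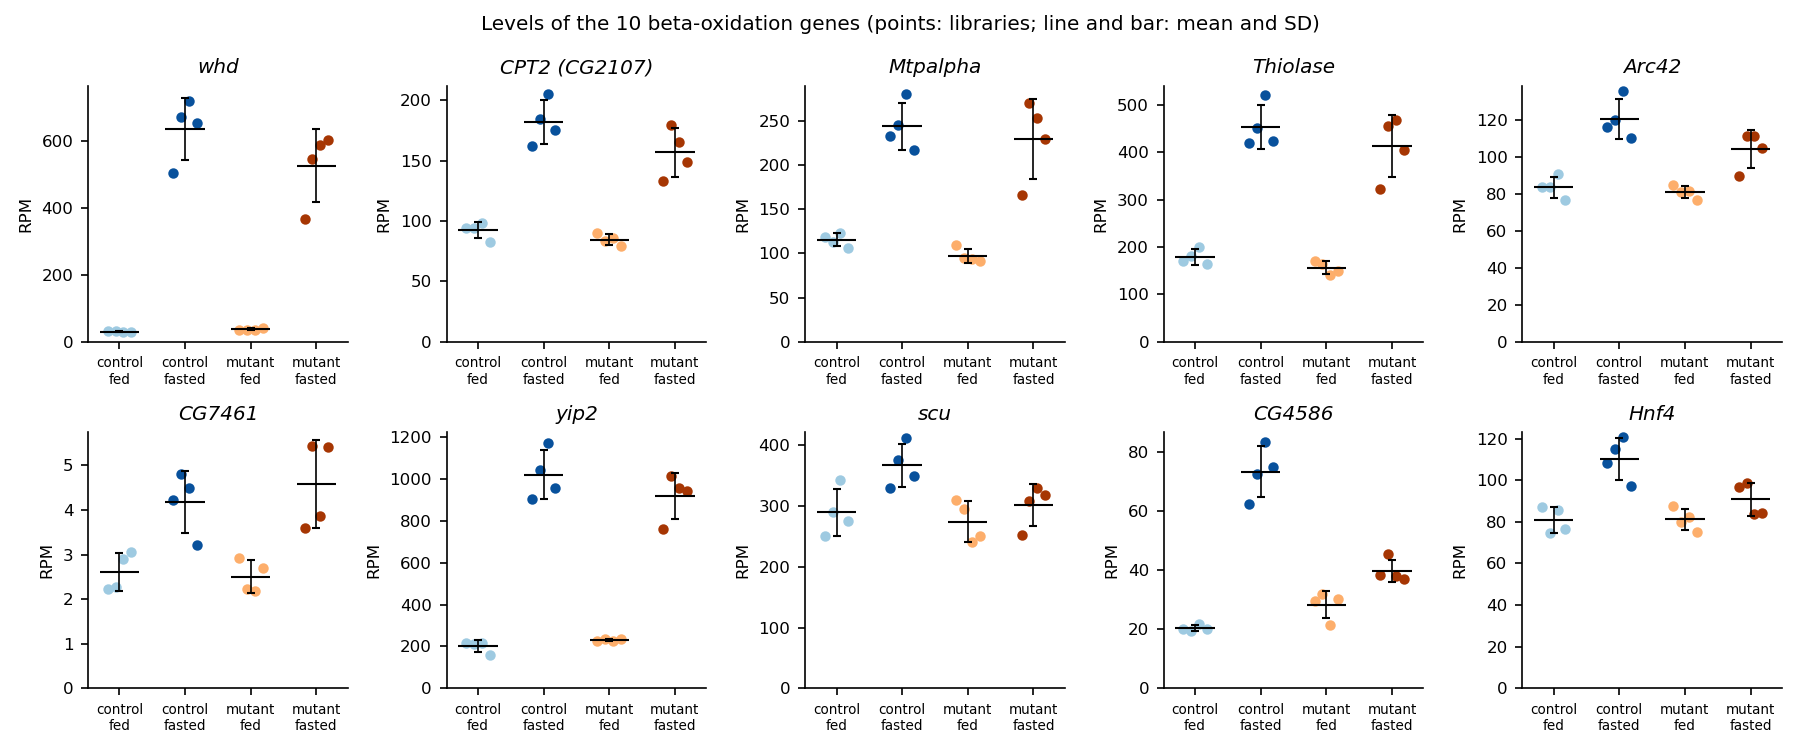
Levels of the 10 genes in RPM on linear axes that start at 0, with 1 panel per gene; points are libraries, and the line and bar are the mean and SD of the 4 libraries of a group. The fasted groups stand above the fed groups most clearly for *whd* and *yip2*, whereas *CG4586* reaches 62.6 to 83.5 RPM in fasted controls and only 37.0 to 45.5 RPM in fasted mutants.

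The first step was carried by *whd* (FBgn0261862, chromosome arm 2R, 10469473 to 10478567 in the release 6 assembly), which encodes carnitine palmitoyltransferase 1, the enzyme that couples long-chain acyl groups to carnitine at the outer mitochondrial membrane. Its level was 31.7, 31.2, 27.9 and 28.6 RPM in the control fed libraries and 504, 669.9, 718 and 652 RPM in the control fasted libraries. In mutants it was 35.8, 35.8, 36.4 and 42.5 RPM in fed and 365, 544, 588 and 603 RPM in fasted larvae. Every fasted library was thus many times above every fed one, in both genotypes. Fasting gave a log2 fold change of 4.36 in controls (SE 0.14, limma adjusted p = 2.08e-11) and 3.74 in mutants (SE 0.14, limma adjusted p = 3.20e-10), and the ratio of mean RPM was 21.3 and 14.0. In controls this exceeded the log2 fold change of 99.8% of the tested genes.

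The rise of *whd* was smaller in mutants by 0.61 on the log2 scale (SE 0.20, limma adjusted p = 0.0321), and it started from a higher fed level. The fed mutant libraries all lay above the fed control libraries, with a log2 fold change of 0.32 that did not pass the test (limma adjusted p = 0.0730). It was called in 5 of 25 alternatives. One was the fit without mutant fasted replicate 1 (limma adjusted p = 0.0148), a library outside this comparison, where the fold change stayed at 0.32. In fasted larvae the 2 genotypes overlapped, at -0.29 (limma adjusted p = 0.111). The call on the difference between responses was lost when any of 6 libraries was left out, which were control fed replicates 3 and 4, mutant fed replicate 4 and control fasted replicates 2, 3 and 4. Without mutant fasted replicate 1, which had the lowest *whd* level of its group, the difference was -0.45 (limma adjusted p = 0.0334).

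*CPT2* (*CG2107*, FBgn0035383, 3L, 2981022 to 2983551) encodes the partner enzyme on the inner membrane, which takes the acyl group off carnitine again. It was measured at 94.6, 94.5, 98.8 and 83.0 RPM in control fed and 163, 185, 206 and 176 RPM in control fasted libraries. In mutants it stood at 90.0, 83.5, 86.1 and 79.0 RPM in fed and 133, 179.9, 166 and 149 RPM in fasted libraries. Fed and fasted libraries did not overlap in either genotype. The rise was 0.96 in controls (SE 0.10, limma adjusted p = 3.98e-07) and 0.88 in mutants (SE 0.10, limma adjusted p = 3.04e-06) on the log2 scale. The difference between these responses was -0.09 (limma adjusted p = 0.638). Per base of exon, the level of *whd* relative to *CPT2* moved from 0.239 ± 0.021 to 2.58 ± 0.20 upon fasting in controls and from 0.331 ± 0.046 to 2.48 ± 0.43 in mutants (SD, n = 4 each). The outer-membrane enzyme therefore went from the lesser to the greater transcript of the pair in every library of both genotypes.

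The mitochondrial trifunctional protein, which carries out the later steps on long chains, is made of an alpha subunit, *Mtpalpha* (FBgn0028479, 2L, 9573563 to 9576769), and a beta subunit with thiolase activity, listed as *Thiolase* (FBgn0025352, 2R, 23866648 to 23868603) and now named *Mtpbeta*. *Mtpalpha* was at 119, 113, 124 and 107 RPM in control fed and 233, 245, 279.8 and 217 RPM in control fasted libraries. In mutants it was at 109, 94.5, 94.1 and 91.5 RPM in fed and 166, 269.6, 253 and 229 RPM in fasted libraries. No fasted library fell within the fed range, although mutant fasted replicate 1 was well under the other 3 of its group. *Mtpalpha* rose on the log2 scale by 1.07 in controls (SE 0.13, limma adjusted p = 2.99e-06) and 1.21 in mutants (SE 0.13, limma adjusted p = 2.15e-06).

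*Thiolase* was at 171, 180.2, 201 and 164 RPM in control fed libraries and at 419, 451, 521 and 425 RPM after fasting. In mutants the values were 171, 165, 140.4 and 149 RPM in fed and 324, 457, 467 and 404 RPM in fasted libraries. The 2 subunits thus rose in both genotypes. *Thiolase* rose on the log2 scale by 1.34 in controls (SE 0.11, limma adjusted p = 8.48e-08) and 1.39 in mutants (SE 0.11, limma adjusted p = 1.98e-07). The interaction was 0.14 for *Mtpalpha* (limma adjusted p = 0.573) and 0.05 for *Thiolase* (limma adjusted p = 0.838), and neither gene was called between the genotypes in fed or in fasted larvae. Per base of exon, the alpha transcript stood at 0.357 ± 0.020 of the beta transcript in control fed and 0.296 ± 0.010 in control fasted libraries, and at 0.345 ± 0.023 and 0.305 ± 0.019 in mutants (SD, n = 4 each).

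*Arc42* and *CG7461* encode acyl-CoA dehydrogenases, which introduce the first double bond, and their fitted log2 fold changes were smaller than those of the genes above. *Arc42* (FBgn0038742, 3R, 19877737 to 19879309), a dehydrogenase for short chains, was at 83.6, 83.6, 90.6 and 76.7 RPM in control fed and 116, 119.8, 136 and 110.3 RPM in control fasted libraries. In mutants it was at 84.9, 81.3, 81.4 and 76.9 RPM in fed and 89.9, 111, 111 and 105 RPM in fasted libraries. Its rise was 0.52 in controls (SE 0.08, limma adjusted p = 5.05e-05) and 0.36 in mutants (SE 0.08, limma adjusted p = 0.00210) on the log2 scale, with no overlap between fed and fasted libraries of either genotype. In fasted larvae the mutants were at -0.20 relative to controls, just short of the call (limma adjusted p = 0.0536), and 8 of 25 alternatives called it.

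*CG7461* (FBgn0034432, 2R, 19305172 to 19307445), the very long-chain dehydrogenase gene now named *Acadvl*, was the least abundant of the 10, resting on 41 to 112 reads per library. It was at 2.22, 2.28, 2.89 and 3.06 RPM in control fed and 4.23, 4.80, 4.49 and 3.21 RPM in control fasted libraries, and at 2.93, 2.22, 2.17 and 2.69 RPM in mutant fed and 3.59, 5.44, 3.87 and 5.42 RPM in mutant fasted libraries. The groups came close to each other but did not overlap. At so low a level the log2(RPM + 1) scale understates the change, and the ratio of mean RPM was 1.60 in controls and 1.83 in mutants, where the fitted log2 fold changes were 0.52 (SE 0.13, limma adjusted p = 0.00341) and 0.66 (SE 0.13, limma adjusted p = 0.000876). After quantile normalization the rise in controls was 0.21 and was no longer called (adjusted p = 0.298).

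The last 2 mitochondrial enzymes differed sharply. *yip2* (FBgn0040064, 2L, 9915253 to 9917220) encodes a 3-ketoacyl-CoA thiolase, which releases acetyl-CoA at the end of each round. It was at 217, 212, 214 and 159 RPM in control fed and 904, 1044, 1171 and 958 RPM in control fasted libraries. In mutants it was at 227, 236, 228 and 236 RPM in fed and 761, 1014, 959 and 944 RPM in fasted libraries. Fed and fasted libraries were widely separated in both genotypes. *yip2* rose on the log2 scale by 2.34 in controls (SE 0.11, limma adjusted p = 2.19e-10) and 1.98 in mutants (SE 0.11, limma adjusted p = 6.56e-09), the second largest of the set in each. The difference between the responses, -0.37, did not pass the test (limma adjusted p = 0.0877).

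*scu* (FBgn0021765, X, 18091259 to 18092853) encodes a short-chain 3-hydroxyacyl-CoA dehydrogenase that also takes part in the maturation of mitochondrial tRNA. Its levels were 251, 289.7, 343 and 276 RPM in control fed and 330.2, 376, 413 and 349.9 RPM in control fasted libraries. In mutants they were 311, 296, 240.3 and 251 RPM in fed and 252, 308, 329 and 319 RPM in fasted libraries. The fed and fasted ranges overlapped in both genotypes. The rise of 0.34 in controls (SE 0.12, limma adjusted p = 0.0171) lost its call without control fed replicate 1 or control fasted replicate 3 (highest adjusted p 0.0572). In mutants the fitted value was 0.14 (SE 0.12, limma adjusted p = 0.367), and the interaction was -0.21 (limma adjusted p = 0.349). All 4 fasted mutant libraries lay under all 4 fasted control libraries, at a log2 fold change of -0.28 that was not called (limma adjusted p = 0.0601).

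**Figure D2:**
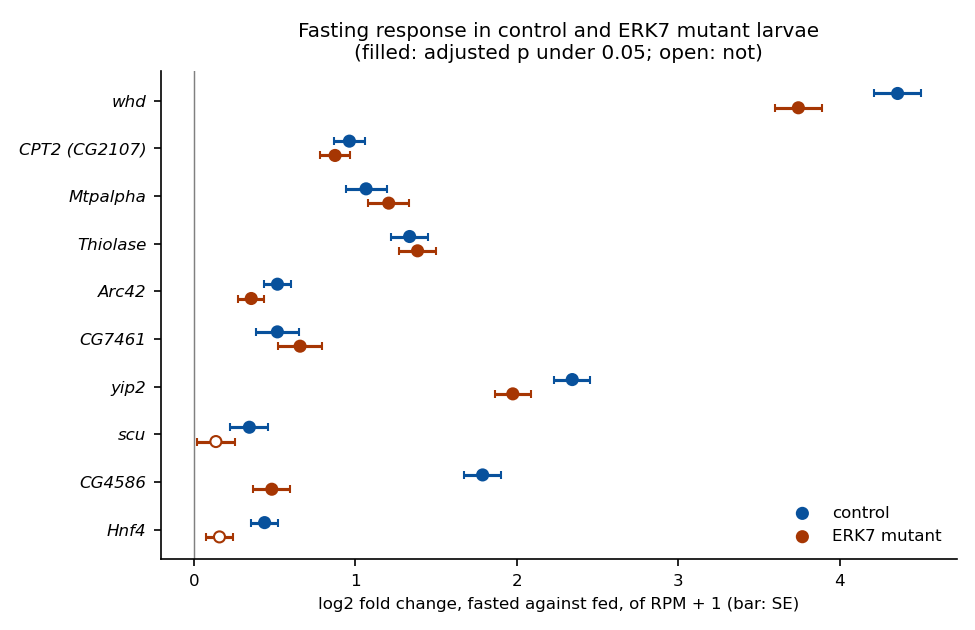
Log2 fold change upon fasting of each gene in control and *ERK7* mutant larvae (x axis, log2 of RPM + 1, with bars of 1 SE), filled where called and open where not. The 2 genotypes lie farthest apart for *CG4586*, at 1.79 in controls and 0.48 in mutants, followed by *whd*, at 4.36 and 3.74.

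Of the 10 genes, *CG4586* had the largest difference between the genotypes. *CG4586* (FBgn0029924, X, 6969918 to 6972265) encodes a predicted acyl-CoA oxidase of the peroxisome. It was at 20.2, 19.5, 21.9 and 20.2 RPM in control fed and 62.6, 72.5, 83.5 and 75.1 RPM in control fasted libraries. In mutants it was at 29.7, 31.8, 21.6 and 30.4 RPM in fed and 38.5, 45.5, 38.2 and 37.0 RPM in fasted libraries. Fasted mutants fell in the gap between the fed and the fasted controls without touching either, and the fed mutants were above the fed controls except for replicate 3. Fasting gave a log2 fold change of 1.79 in controls (SE 0.11, limma adjusted p = 3.67e-09) and 0.48 in mutants (SE 0.11, limma adjusted p = 0.00261), and the ratio of mean RPM was 3.59 and 1.40.

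The interaction of *CG4586* was -1.31 (SE 0.16, limma adjusted p = 4.58e-05), lower than the interaction of all but 2.51% of tested genes. Mutants held more of the transcript than controls when fed (log2 fold change 0.44, SE 0.11, limma adjusted p = 0.00472) and less when fasted (-0.86, SE 0.11, limma adjusted p = 9.21e-05). It was the gene called between genotypes in fed larvae, 1 of the 10, where 51.5% of all genes were called and 25.6% were called higher. In *whd* and *yip2* all fed mutants were above all fed controls, 2 of the 10 beside 25.3% of all genes. With *Hnf4* it was 1 of 2 called in fasted larvae, where 44.7% of all genes were called and 20.9% were called lower. In *CG4586* and *scu* all fasted mutants were below all fasted controls, 2 of the 10 beside 16.9% of all genes. The first count became 2 without control fasted replicate 1 and 3 without mutant fasted replicate 1. The second became 5 without control fasted replicate 1, 4 without mutant fasted replicate 2, and 1 without control fasted replicate 2, control fasted replicate 3 or mutant fasted replicate 4. The values of *CG4586* itself kept their direction and their call in all 5 comparisons under every alternative run, with the interaction between -1.43 and -1.24. The gene lies 2289 kb from *Erk7* on the same chromosome.

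*Hnf4* (FBgn0004914, 2L, 8687226 to 8709611) moved little. It was at 87.1, 74.5, 85.5 and 76.5 RPM in control fed and 108, 114.9, 121 and 97.0 RPM in control fasted libraries. In mutants it was at 87.5, 80.0, 82.2 and 75.1 RPM in fed and 96.9, 98.6, 83.7 and 84.4 RPM in fasted libraries. Fasted controls lay above all fed controls, whereas fed and fasted mutants overlapped. The rise in controls was 0.44 (SE 0.08, limma adjusted p = 0.000327), and in mutants fasting left it at 0.16 (SE 0.08, limma adjusted p = 0.137). The difference between these responses was itself -0.28 and not called (SE 0.12, limma adjusted p = 0.0863), so the responses of the 2 genotypes are not shown to differ. Fasted mutants held less *Hnf4* than fasted controls by 0.27 on the log2 scale (SE 0.08, limma adjusted p = 0.0182), with overlap of the 2 groups. That call was lost with only the 8 fasted libraries in the fit and without control fasted replicate 2 or 3 or mutant fasted replicate 3 or 4 (highest adjusted p 0.0603). In fed larvae the genotypes were at 80.9 ± 6.3 and 81.2 ± 5.1 RPM (SD, n = 4 each).

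Levels of different genes were compared per kilobase of exon. In control fed larvae the order was *scu*, *yip2*, *Thiolase*, *Arc42*, *Mtpalpha*, *CPT2*, *Hnf4*, *whd*, *CG4586* and *CG7461*, from 256 ± 34 to 1.15 ± 0.19 RPM per kb (SD, n = 4). Within it *yip2* and *Thiolase*, *Mtpalpha* and *CPT2*, and *whd* and *CG4586* overlapped. Fasting moved *yip2* from the second to the first place, at 733 ± 84 RPM per kb in controls, and *whd* from the eighth to the fourth, from 9.40 ± 0.59 to 200.3 ± 29.1 RPM per kb (SD, n = 4). In mutants *yip2* likewise moved from the second to the first place and *whd* from the ninth to the fourth, at 661 ± 79 RPM per kb for *yip2* and 165 ± 35 RPM per kb for *whd* (SD, n = 4). In fed mutants *CG4586* (9.65 to 14.2 RPM per kb) overlapped *Hnf4* above it and *whd* below it (11.3 to 13.4 RPM per kb). The order of *CG4586* and *whd* is thus not resolved in fed larvae of either genotype. *CG4586* stood clearly above *Hnf4* in fasted controls, at 32.8 ± 3.8 against 20.5 ± 1.9 RPM per kb, but overlapped it in fasted mutants, at 17.8 ± 1.7 against 16.9 ± 1.5 RPM per kb (SD, n = 4).

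**Figure D3:**
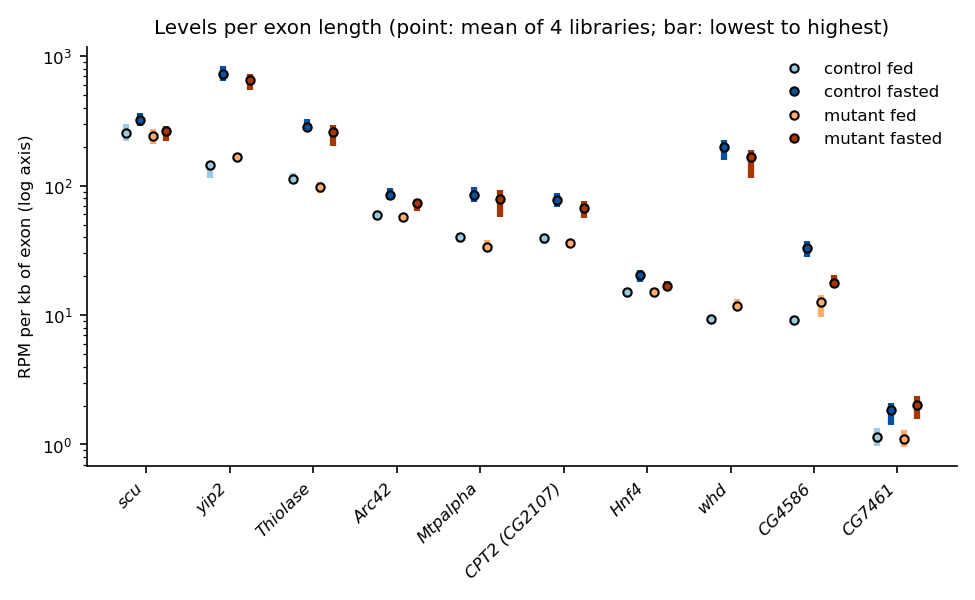
Level of each gene per kilobase of exon in RPM per kb (log axis), ordered by the control fed mean; points are means of 4 libraries and bars run from the lowest to the highest library. *whd* climbs from about the level of *CG4586* in fed larvae to the fourth place, after *yip2*, *scu* and *Thiolase*, in fasted larvae of both genotypes.

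The spread within a group was shared by many of the genes. Mutant fasted replicate 1 was the lowest library of its group for 8 of the 10 genes, the exceptions being *CG4586* and *Hnf4*. Control fasted replicate 3 was the highest of its group for 9 of the 10. The RPM summed over all genes was also the lowest of its group in mutant fasted replicate 1 (906386). It was the highest of its group in control fasted replicate 3 (1013003). The same counts were not made over all genes, and the part of library scaling in this shared spread was not tested. Without mutant fasted replicate 1 the count called upon fasting in mutants was again 8, and the rise in mutants was 3.91 for *whd* and 1.36 for *Mtpalpha* on the log2 scale. Exons of *whd*, *Mtpalpha*, *Thiolase* and *Hnf4* overlap genes on the opposite strand, and reads were counted by strand. None of the 10 shares exons with another gene on its own strand.

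*CG4586* was next compared with 4 further acyl-CoA oxidase genes, a comparison chosen after the values were seen. *Acox57D-d* was at 115.3, 108, 106 and 91.9 RPM in control fed, 107, 97.4, 147 and 87.6 RPM in control fasted, 60.5, 49.9, 55.8 and 51.0 RPM in mutant fed and 86.3, 216, 158 and 187 RPM in mutant fasted libraries. In this gene 3 of the 4 fasted mutant libraries stood above every control library, and mutant fasted replicate 1 did not.

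The interaction of 3 of these 4 genes was called with the opposite sign to that of *CG4586*, beside 18.2% of all genes called in that direction. It was 1.45 for *Acox57D-d* (SE 0.32, limma adjusted p = 0.00332), 0.85 for *Acox57D-p* (SE 0.30, limma adjusted p = 0.0404) and 0.73 for *CG17544* (SE 0.11, limma adjusted p = 0.000216). *CG9527* was not called (-0.15, limma adjusted p = 0.482). The calls of *Acox57D-d* and *CG17544* held under all 24 alternatives, whereas that of *Acox57D-p* was lost in 14. Without mutant fasted replicate 1 the interaction of *Acox57D-d* was 1.72. The paths behind the positive signs differed. *Acox57D-d* rose by 1.48 upon fasting in mutants, and fed mutants held less of it than fed controls (-0.94, limma adjusted p = 0.00269). Its difference between fasted genotypes, 0.51, was not called (limma adjusted p = 0.0785). *Acox57D-p* rose in both genotypes (1.61 in controls and 2.46 in mutants). *CG17544* fell by 0.66 in fasted controls and was at 0.07 in mutants. Fasted mutants held more *CG17544* than fasted controls (0.56, limma adjusted p = 0.00014).

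Per kilobase of exon, *CG4586* made up 3.00, 3.10, 3.28 and 3.74% of the summed level of these 5 oxidase genes in control fed libraries and 6.56, 8.68, 7.52 and 9.35% in control fasted libraries. In mutants its share was 5.68, 6.57, 4.11 and 6.33% in fed and 5.47, 3.46, 3.69 and 3.53% in fasted libraries. The share was thus higher in every fasted than in every fed control library, whereas the fed and fasted ranges of the mutants overlapped. The summed level was 359 to 496 RPM per kb in fasted controls and 314 to 587 RPM per kb in fasted mutants, so that the 2 groups overlapped.

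**Figure D4:**
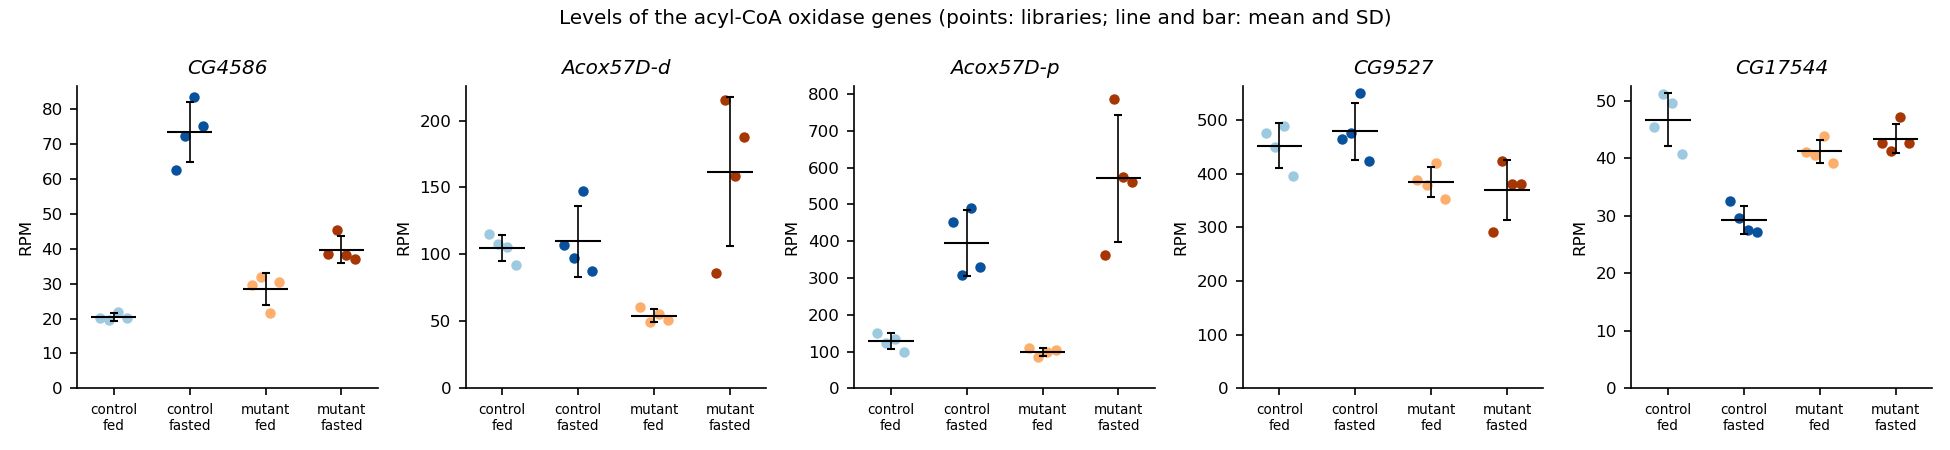
Levels of 5 acyl-CoA oxidase genes in RPM on linear axes that start at 0; points are libraries, and the line and bar are the mean and SD of 4 libraries. *CG4586* is highest in fasted controls, whereas *Acox57D-d* is highest in 3 of the 4 fasted mutant libraries and lowest in the fed mutant libraries.

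The other mitochondrial enzymes, a list of 15 of which 13 were measured, did not move in 1 direction. In controls 5 rose and 7 fell upon fasting, where 37.5% of all genes rose and 32.2% fell. Their median was -0.49 beside 0.10 for all genes. In mutants 4 rose and 6 fell, where 23.7% of all genes rose and 2616 of 10459 fell. The median there was -0.25 beside 0.00 for all genes. *CG12262*, the medium-chain acyl-CoA dehydrogenase *Mcad*, had the largest rise of the list, from 128 to 208 RPM in fed to 1355 to 1953 RPM in fasted controls. Its log2 fold change was 3.25 in controls and 3.20 in mutants (SE 0.16 each, limma adjusted p = 2.26e-10 and 1.55e-09). *Etf-QO*, which passes electrons from these dehydrogenases to ubiquinone, rose by 1.06 in controls and 0.85 in mutants (limma adjusted p = 1.21e-05 and 0.000191). *CG3902*, a dehydrogenase gene related to the human enzyme for short branched chains, went the other way. It fell by 1.81 in controls and by 1.47 in mutants (limma adjusted p = 2.96e-09 and 1.00e-07), from 1345 to 1740.0 RPM in fed to 364 to 482 RPM in fasted controls.

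*CG9914* and *CG5844*, which are named by the same rule, were the 2 of 13 measured genes called for the interaction, beside 31.9% of all genes. Both had a smaller fall in mutants, and 18.2% of all genes were called with this sign. *CG9914* fell by 1.05 in controls and by 0.53 in mutants, an interaction of 0.52 (SE 0.14, limma adjusted p = 0.00980). *CG5844* fell by 0.81 in controls and by 0.18 in mutants, an interaction of 0.62 (SE 0.09, limma adjusted p = 0.000177), and its fall in mutants lost the call in 6 of 25 alternatives. Mutants held less *CG5844* than controls when fed (-0.45, limma adjusted p = 4.90e-05) and more when fasted (0.17, limma adjusted p = 0.0453). For *CG9914* these differences were -0.17 in fed larvae, not called, and 0.35 in fasted larvae (limma adjusted p = 0.166 and 0.00952). *yip2* is the first of 4 adjacent genes on 2L, from 9915253 to 9922860, and the other 3 belong to the list as well. The neighbours did not share its course. *CG4598* rose by 0.78 and *CG4592* fell by 0.84 upon fasting in controls (limma adjusted p = 7.11e-07 and 2.67e-07), and *CG4594* was at -0.30 and not called (limma adjusted p = 0.420).

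Of 10 other peroxisomal enzymes and transporters, 2 rose and 3 fell upon fasting in controls, beside 37.5% and 32.2% of all genes. In mutants 4 rose and 1 fell, where 23.7% of all genes rose and 2616 of 10459 fell. The 4 became 6 without mutant fasted replicate 1 and 3 to 6 over all alternatives. The interaction was called higher for 4 and lower for 1 of them, beside 18.2% and 13.7% of all genes. These 4 became 3 to 5 over the alternatives, and the 1, *Cat*, lost its call without control fasted replicate 1, control fasted replicate 3 or mutant fasted replicate 1. The 4 were the 3 oxidase genes above and *Pmp70*, a transporter of the peroxisomal membrane now named *Abcd3*. It fell from 270.3 to 339 RPM in fed to 168 to 252 RPM in fasted controls (log2 fold change -0.70, limma adjusted p = 0.00308) and was at 196 to 222 RPM in fed and 175 to 337 RPM in fasted mutants (0.39, limma adjusted p = 0.0905), an interaction of 1.09 (SE 0.25, limma adjusted p = 0.00497). Without mutant fasted replicate 1, *Pmp70* rose in mutants by 0.60 (limma adjusted p = 0.00221). Mutants held less *Pmp70* than controls when fed (-0.58, limma adjusted p = 0.0143) and more when fasted (0.51, limma adjusted p = 0.0327). *Cat*, the catalase that removes the hydrogen peroxide made by the oxidases, rose by 1.21 in controls and 0.75 in mutants. Its interaction of -0.47 (limma adjusted p = 0.0439) lost the call in 12 of 24 alternatives. Fed mutants held more *Cat* than fed controls (0.56, limma adjusted p = 0.00106), and in fasted larvae the difference was 0.09 (limma adjusted p = 0.551).

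Genes of peroxisome assembly were listed as well, and 11 of 13 were measured. In controls 7 rose and 1 fell upon fasting, beside 37.5% and 32.2% of all genes. In mutants 9 rose and 1 fell, where 23.7% of all genes rose and 2616 of 10459 fell. The medians were 0.38 and 0.54, beside 0.10 and 0.00 over all genes. *Pex7* rose by 1.02 in controls and 1.21 in mutants and *Pex10* by 0.57 and 0.54, while *Pex19* fell by 0.90 and by 0.47 (limma adjusted p from 1.31e-06 to 0.00120 for these 6 values). The mean of *Pex7* went from 6.88 to 15.0 RPM in controls and from 2.91 to 8.00 RPM in mutants. At such low levels the log2(RPM + 1) scale understates the change. The count of 7 became 4 without control fasted replicate 3. The interaction was called higher for 5 of the 11 genes, beside 18.2% of all genes, but for 2 without control fasted replicate 1 and for 7 without mutant fasted replicate 1. The 2 largest, *Pex13* and *Pex3* (0.59 each, limma adjusted p = 0.0492 and 0.0363), lost the call in 17 of 24 and 10 of 23 alternatives. *Pex3* was also at a low level, 2.02 to 5.98 RPM over all libraries. In fed larvae 6 of the 11 genes were lower in mutants, where 26.0% of all genes were called lower.

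Among 10 regulators of fatty acid oxidation other than *Hnf4*, 7 rose and 1 fell upon fasting in controls, beside 37.5% and 32.2% of all genes. In mutants 4 rose and 1 fell, where 23.7% of all genes rose and 2616 of 10459 fell. *AkhR*, the receptor of the adipokinetic hormone that mobilises fat body stores, was at 4.14 to 4.86 RPM in fed and 16.1 to 24.4 RPM in fasted controls, and at 5.84 to 7.36 RPM in fed and 17.2 to 22.1 RPM in fasted mutants. It rose by 2.02 in controls and 1.42 in mutants, an interaction of -0.61 (SE 0.16, limma adjusted p = 0.0101) that lost the call after quantile normalization (-0.33, adjusted p = 0.156). It was higher in mutants when fed (0.49, limma adjusted p = 0.00206), and in fasted larvae the difference was -0.11 (limma adjusted p = 0.426). *Eip75B*, an ecdysone-induced nuclear receptor gene, rose by 1.18 in controls and was at 0.28 in mutants (limma adjusted p = 0.000135 and 0.289). Mutant libraries were at 25.2 to 31.6 RPM when fed and 32.7 to 37.8 RPM when fasted, without overlap. Their rise was called in 2 of 25 alternatives. One was the fit without control fasted replicate 3, a library outside this comparison (0.28, limma adjusted p = 0.0151). The interaction of *Eip75B* was -0.90 (limma adjusted p = 0.0295). Control fasted replicate 3 was at 102 RPM, more than the other 3 at 40.4 to 49.9 RPM. Without it the interaction was -0.61 (limma adjusted p = 0.00290). The interaction of *Eip75B* lost the call without control fed replicate 2, mutant fed replicate 1 or 2, or mutant fasted replicate 4 (highest adjusted p 0.0544).

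*srl*, the fly homologue of the coactivator PGC-1, moved in the other direction from the 10 genes. It was at 76.9, 101, 81.3 and 87.0 RPM in control fed, 18.8, 20.8, 19.2 and 19.6 RPM in control fasted, 36.1, 30.9, 37.2 and 31.8 RPM in mutant fed and 17.8, 27.3, 26.2 and 18.2 RPM in mutant fasted libraries. Fed mutants stood between fed and fasted controls, and the fasted groups of the 2 genotypes overlapped. *srl* fell upon fasting in both genotypes, with a log2 fold change of -2.08 in controls (SE 0.13, limma adjusted p = 2.86e-09) and -0.60 in mutants (SE 0.13, limma adjusted p = 0.00126). The interaction was 1.48 (SE 0.18, limma adjusted p = 4.65e-05) and held under all 24 alternatives, and the log2 fold change of fed mutants against fed controls was -1.32 (limma adjusted p = 1.62e-06).

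**Figure D5:**
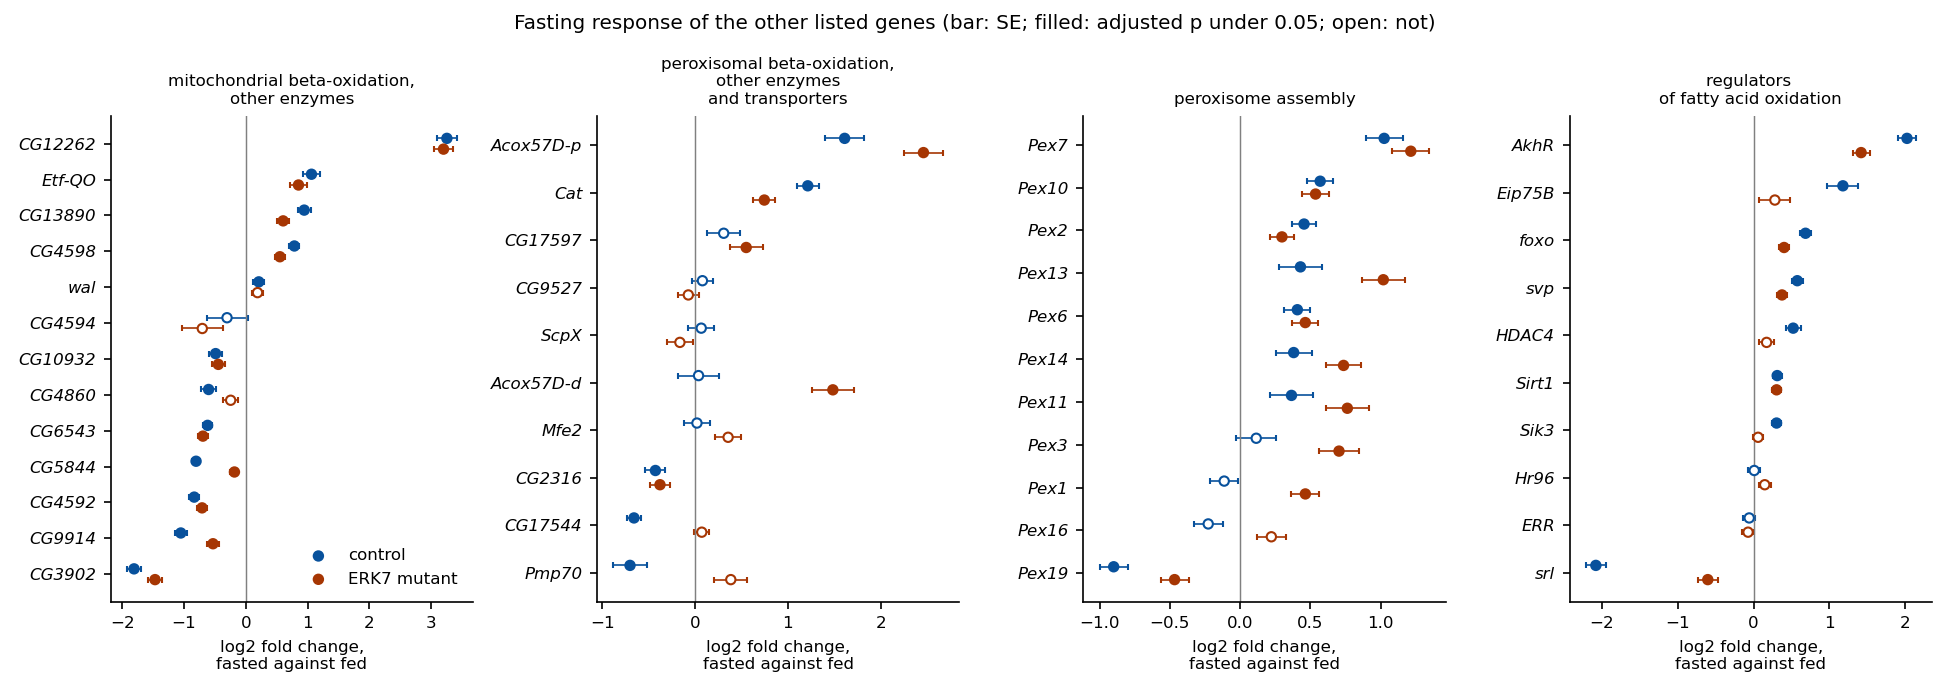
Log2 fold change upon fasting of the genes of the 4 further lists in control and *ERK7* mutant larvae, with bars of 1 SE, filled where called and open where not. In controls the other mitochondrial enzymes spread from -1.81 (*CG3902*) to 3.25 (*CG12262*), and mutant points lie to the right of the control points for *Acox57D-d*, *Pmp70*, *Pex13* and *srl*.

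The genes most alike to *whd* and *Hnf4* were sought among 5220 genes above the median level, by Pearson's r of log2(RPM + 1) over the 16 libraries. The libraries fall into 4 groups, so this measure mostly follows the group means, and it is given as a description. For *whd* the nearest genes outside the set were *pdgy* (r = 0.996), an acyl-CoA synthetase gene, *CG12262* (r = 0.993) and *CG4335* (r = 0.991). *yip2* lay as near (r = 0.996), while *CG4586* had r = 0.871, *Hnf4* 0.738 and *scu* 0.592. For *Hnf4* the nearest were *CAP* (r = 0.935), *CG15533* (r = 0.934) and *scrib* (r = 0.928), and among the members above the median level *CG4586* (r = 0.853) and *Arc42* (r = 0.848) came closest.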

How the data were processed

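Total RNA was isolated from whole larvae by the authors, who enriched and sequenced the polyadenylated part, mapped the reads with TopHat2 (version 2.1.0 in the submitters' processing notes) to FlyBase release 6, counted them by strand on exons (HTSeq) and left out genes of very low counts. The deposited values are a linear signal per gene and library, scaled by the authors to the effective library size, and are called RPM here. All values (100%) were whole multiples of 1 read within a tolerance of 0.01, so reads were recovered from them. The deposited table also holds the authors' own comparisons (mean log2 level, log2 fold changes, t and F values, p-values), which were not used.

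Differences were tested with limma 3.58.1 in R 4.3.3 on log2(RPM + 1), in a model with a mean for each of the 4 groups, fitted to the 16 libraries together. P-values were adjusted over 10459 genes by the Benjamini-Hochberg method, with a threshold of 0.05. Scripts were tested on simulated data. Alternatives were a pseudocount of 0.1, quantile normalization, median centring, removal of the lowest 25% of levels, a robust variance trend, edgeR 4.0.16 (quasi-likelihood) and DESeq2 1.42.0 on the recovered reads, only the groups compared, the replicate number as a block, and each library left out in turn. For the other listed genes these were added after the values were seen.

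The members and lists were chosen with earlier results of these data known. All members are named. From each other list the rule named the 2 largest rises and 2 largest falls among genes called upon fasting in controls and the 2 largest called interactions. It also named the 3 genes most alike to *whd* and to *Hnf4* by Pearson correlation. *CG9527* and the neighbours of *yip2* were chosen after their values were seen. Positions and exon lengths come from Ensembl's annotation of the release 6 assembly, which is later than that of the authors. No sequences are shown. A further peroxisomal gene is not reported here.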

Additional observations from a re-analysis of the deposited data

Results flagged for a closer look

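In 3 of the 40 sets of 4 libraries, the outermost library stood apart from the others by more than Dixon's 95% limit, where about 1 in 20 would do so by chance. These were mutant fed *whd* (replicate 4 at 42.5 RPM against 35.8 to 36.4 RPM, gap over range 0.906), mutant fed *Mtpalpha* (replicate 1 at 109 RPM against 91.5 to 94.5 RPM, 0.834) and control fed *yip2* (replicate 4 at 159 RPM against 212 to 217 RPM, 0.904). The fasting response differed between the genotypes by -0.61 on the log2 scale for *whd* and by -1.31 for *CG4586* (limma adjusted p = 0.0321 and 4.58e-05).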

How the results depend on the processing

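Of 1235 member values under the alternatives, 1177 kept direction and call, 14 lost the call, 26 gained it and 18 changed sign. For 19 further genes, with alternatives added after the values were seen, these counts were 1314, 72, 5 and 12 of 1403. No value that changed sign was called. The cause of these changes was not tested.

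Counts of all called genes stayed within 1.5 times, and without 1 library they were 6606 to 7370, 4624 to 5178, 4809 to 5541, 3397 to 4931 and 2769 to 3612 for fasting in controls, fasting in mutants, genotype in fed and in fasted larvae, and the interaction. On the recovered reads edgeR called 4056 genes higher and 3367 lower upon fasting in controls, 2502 and 2592 in mutants, and 1955 and 1653 for the interaction. Members called between fed genotypes, 1, became 4 with quantile normalization, 2 with median centring, 3 with only the groups compared, and 1 to 3 without 1 library. Between fasted genotypes the 2 became 4 with DESeq2, 1 with only the groups compared and 1 to 5 without 1 library. For the interaction the 2 became 4 with quantile normalization and 1 to 2 without 1 library (1 without control fed replicate 3 or 4, mutant fed replicate 4, or control fasted replicate 2 or 3). Members called upon fasting were 9 to 10 in controls and 8 in mutants without 1 library.

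Replicate numbers did not pair the libraries. Over 24 same-numbered pairs the correlation of deviations ran from -0.32 to 0.29, 6 were above 0.1, and 2 of 16 libraries matched their own number best. With the replicate block the members called were 10, 8, 1, 3 and 2 and the genes called 7199, 5081, 5366, 4535 and 3241, in the order above.

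Signs changed with quantile normalization for *Arc42* (0.0867) and *scu* (0.115) between fed genotypes, *Pex3* (-0.162) upon fasting in controls, and the interactions of *Thiolase* (-0.0384) and *Pex10* (0.0225). With median centring they changed between fed genotypes for *Arc42* (0.00783) and *CG7461* (0.00868), and with DESeq2 for *Hnf4* (-0.0265). Without 1 library, ranges that crossed 0 were -0.144 to 0.00643 for *scu*, -0.0988 to 0.0177 for *CG7461* and -0.0322 to 0.0423 for *Hnf4* between fed genotypes, and -0.189 to 0.0434 for *Mtpalpha* between fasted genotypes. They were -0.112 to 0.136 for *Acox57D-d* upon fasting in controls, and -0.143 to 0.0377 for *CG9527* in mutants. For the interaction they were -0.0149 to 0.161 for *Thiolase*, -0.0860 to 0.0582 for *Pex10* and -0.163 to 0.0761 for *CG12262*.

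The precision is limited by 4 libraries a group and, for *CG7461*, by its low read numbers. That gene was absent after removal of the lowest 25% of levels. The fit with only the groups compared was not run for the interaction, which uses all groups.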
